A study of Rattus norvegicus with 12 samples.

Results

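The step from 6 to 9 weeks of carbon tetrachloride (CCl4) was followed in rat liver on 6 of the 12 Affymetrix Rat Genome 230 2.0 arrays of a cirrhosis time course. All animals were Sprague-Dawley rats labelled as 12 weeks old, and tissue came from the middle of the right lobe of the liver. The 6-week group had received CCl4 for 6 weeks and the 9-week group for 9 weeks, with 3 arrays each, and the other 6 arrays were of liver at 0h and at 3 weeks. According to the labels the 3 arrays per group are technical replicates, and neither the number nor the sex of the animals is stated, so p-values here measure the spread between arrays, which may be technical. No time-matched liver without CCl4 is among the groups, so age, time and CCl4 cannot be told apart. The comparison took all 19857 probe sets that carry 1 gene symbol, of 31099 on the array. They stand for 13876 genes, of which 10298 passed a filter on low signal and were tested.

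CCl4 is turned into radicals by cytochrome P450 in the hepatocytes around the central vein, and repeated doses kill these cells, draw in macrophages and lymphocytes and lead to scar tissue and regenerating nodules. Interferon gamma, made by T cells and natural killer (NK) cells, acts on promoter elements called GAS, and interferon-responsive elements (ISRE) bind factors of the Irf family. Genes induced by interferon gamma include chemokines that attract T cells, guanylate-binding GTPases and the immunoproteasome. They also include the major histocompatibility complex (MHC) class II genes, which depend on the transactivator Ciita.

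From 6 to 9 weeks, 199 genes rose and 60 fell by at least 2-fold at a limma adjusted p under 0.05, which is 1.93% and 0.583% of the 10298 genes tested. Among genes whose symbol is no locus or clone name, the 12 largest rises held the interferon-induced Cxcl9, Gbp2 and Psmb9, the MHC class II genes RT1-Ba, RT1-Bb and RT1-Db1, and Gzmm, Cd3d and Prf1 of lymphocytes and NK cells, with Fam111a, Akr1b8 and Plvap. The largest falls were those of lipocalin 2 (Lcn2), follistatin (Fst) and the defensins RatNP-3b and Defa5. At least 4-fold changes were made by 29 of the genes that rose and 6 of those that fell. The 6 arrays did not overlap between the groups for 252 of the 259 called genes, and for 42.2% of all genes tested. The median change over all genes tested was 0.03 on the log2 scale. Changes below are log2(signal + 16) at 9 weeks minus the same at 6 weeks, with the standard error of the limma fit and n = 3 arrays per group. This scale understates the change of genes with low signal. Counts of list members with an unadjusted p under 0.05, and of positive or negative members, stand without the share over all genes tested, which was not computed.

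**Figure D1:**
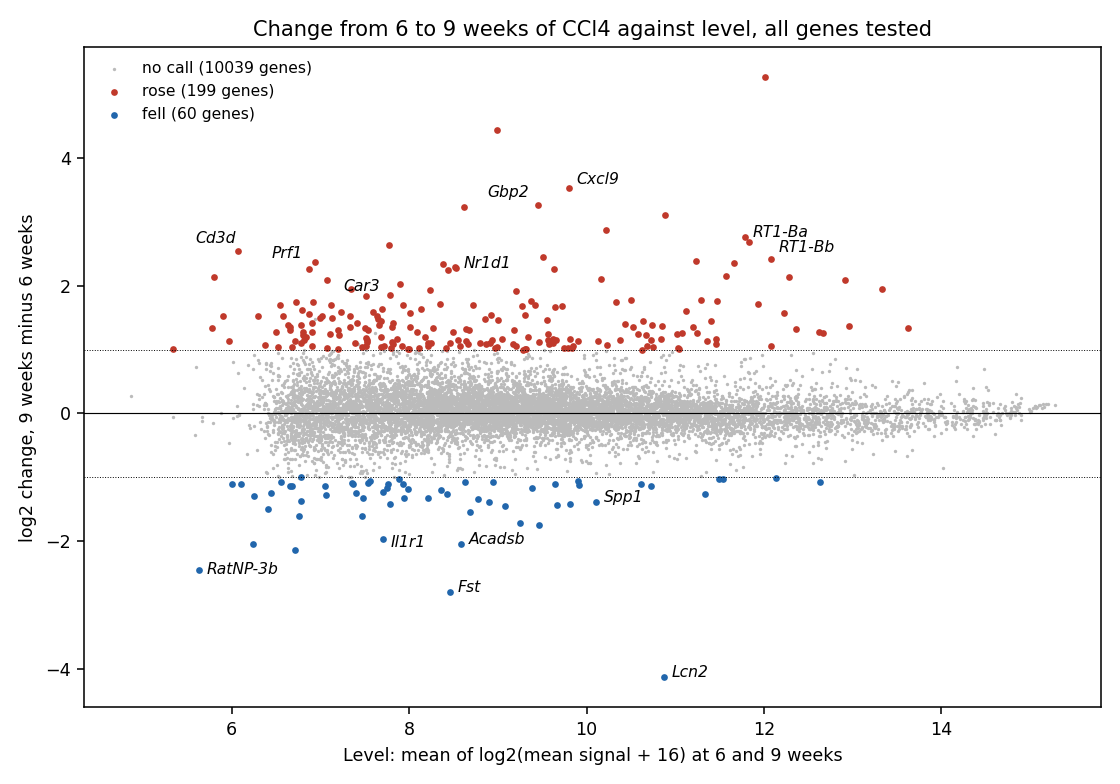
Change from 6 to 9 weeks for each of 10298 genes (vertical axis, log2 of signal + 16, 9 weeks minus 6 weeks) against its level (horizontal axis, mean log2 of the group mean signal + 16 at 6 and 9 weeks). Red points are the 199 genes that rose, blue points the 60 that fell, grey points the genes with no call, and dotted lines mark a change of 2-fold; rises were spread over the whole range of levels, and Lcn2 made the largest fall at -4.13.

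The promoters of 5 genes that rose are shown because they carry letters of the elements described above. They run from 250 bases before to 50 bases after the gene start, 5′ to 3′ on the gene's strand, and come from RefSeq on build GRCr8. Capitals mark matches to the GAS letters TTCNNNGAA or to an ISRE core, taken as GAAA, any 2 bases and GAAA again, searched on both strands and allowed to overlap. Gbp2 holds the ISRE core in reverse orientation, Psmb10 holds 2 ISRE cores, Igtp and Irgm hold a GAS and an ISRE core side by side, and Irf8 holds 2 GAS. The same window of RT1-Ba, RT1-Bb, Cd74, Psmb9 and Mx1, which also rose, held neither the GAS nor the ISRE core letters.
Gbp2, GRCr8 chr2:234005477-234005776, plus strand: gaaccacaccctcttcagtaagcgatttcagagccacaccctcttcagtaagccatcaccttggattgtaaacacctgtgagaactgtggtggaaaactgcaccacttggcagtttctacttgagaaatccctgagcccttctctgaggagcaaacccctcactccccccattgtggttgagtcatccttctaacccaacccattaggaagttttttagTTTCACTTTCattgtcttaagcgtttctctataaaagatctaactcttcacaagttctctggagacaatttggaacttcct
Psmb10, GRCr8 chr19:50743243-50743542, minus strand: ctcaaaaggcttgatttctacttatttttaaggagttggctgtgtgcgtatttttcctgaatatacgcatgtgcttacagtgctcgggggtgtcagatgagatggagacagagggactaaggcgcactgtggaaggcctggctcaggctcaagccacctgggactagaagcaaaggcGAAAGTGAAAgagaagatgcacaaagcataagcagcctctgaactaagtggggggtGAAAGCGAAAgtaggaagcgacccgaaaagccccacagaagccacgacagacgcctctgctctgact
Igtp, GRCr8 chr10:42874797-42875096, plus strand: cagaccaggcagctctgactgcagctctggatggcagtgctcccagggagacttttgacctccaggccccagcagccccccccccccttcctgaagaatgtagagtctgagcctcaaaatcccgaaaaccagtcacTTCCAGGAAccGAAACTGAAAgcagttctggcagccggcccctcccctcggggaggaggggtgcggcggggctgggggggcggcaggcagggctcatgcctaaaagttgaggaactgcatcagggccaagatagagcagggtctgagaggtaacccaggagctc
Irgm, GRCr8 chr10:33742529-33742828, minus strand: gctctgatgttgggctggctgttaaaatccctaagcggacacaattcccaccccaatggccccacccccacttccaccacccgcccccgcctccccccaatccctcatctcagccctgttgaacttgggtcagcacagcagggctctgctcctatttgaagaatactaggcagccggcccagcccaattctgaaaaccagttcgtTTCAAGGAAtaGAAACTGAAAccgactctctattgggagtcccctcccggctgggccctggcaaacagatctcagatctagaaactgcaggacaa
Irf8, GRCr8 chr19:65699034-65699333, plus strand: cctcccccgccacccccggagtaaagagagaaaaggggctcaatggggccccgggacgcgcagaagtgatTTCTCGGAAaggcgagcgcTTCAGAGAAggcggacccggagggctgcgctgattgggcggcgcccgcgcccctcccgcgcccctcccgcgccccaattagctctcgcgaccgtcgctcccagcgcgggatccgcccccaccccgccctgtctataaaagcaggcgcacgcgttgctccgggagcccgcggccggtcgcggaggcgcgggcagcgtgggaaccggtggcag

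Of the 199 genes that rose, 132 had a promoter in the RefSeq table, and the ISRE core letters stood in 17.4% of these. The same letters stood in 3.1% of the 7909 promoters of tested genes and in 3.77% of all 27457 promoters of this length. For the GAS letters the shares were 16.7% of the promoters of genes that rose, 6.74% of those of tested genes and 8.68% of all. Of 45 matched promoters of genes that fell, 0 held the ISRE core letters and 1 held the GAS letters. A match describes letters in this window and is not a measured binding site.

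Measures of blood and RNA quality also differed between the 2 groups. Of 12 tested red blood cell transcripts, 4 rose and 1 fell, with a median of 0.25. Hbb, a globin of red cells, went from 5034.5, 4911.4 and 4838.4 to 12736.0, 12635.0 and 13037.8, a change of 1.37 ± 0.05, and the list's summed signal from between 17736 and 18778 to between 37929 and 39942, below the 64827 to 71845 at 0h. Car2, Hba-a2 and Alas2 rose by 1.76, 1.33 and 1.10, while the red cell anion exchanger Slc4a1 fell by 1.05, and globin probe sets may share hybridisation. Slc4a1 and Alas2 were not called with a pseudocount of 64, nor was Slc4a1 without 6-week array 2 or 9-week array 3. A second Slc4a1 probe set gave -0.22, and the mean of both, at -0.64, was not called. The list's median was 0.13 without the filter on low signal and 0.39 with the filter at the 60th percentile.

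The ratio of the 3′ to the 5′ control probe set for beta-actin was 2.63, 2.52 and 2.47 at 6 weeks and 3.57, 3.80 and 3.24 at 9 weeks, and for GAPDH 1.12, 1.22 and 1.23 and then 1.39, 1.41 and 1.43. Both ratios were higher on every 9-week array than on every 6-week array. The part of blood content and RNA quality in the changes was not tested.

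Of 36 tested interferon-induced genes in the list, 19 rose, 0 fell and 34 were positive, with a median change of 1.06 beside 0.03 for all genes. Of the list's 43 genes, 7 were not tested, because they had no probe set under their symbol or did not pass the filter. Cxcl9, a chemokine that draws activated T cells through the receptor Cxcr3, read 251.2, 235.5 and 252.6 on the 6-week arrays and 3026.1, 3034.9 and 2994.0 on the 9-week arrays. All 9-week arrays lay far above all 6-week arrays, a change of 3.53 ± 0.09 (adjusted p = 7.28e-15). Its second probe set, at 204.0, 252.0 and 289.1 and then 2035.2, 2065.5 and 2135.6, gave 3.00. The related chemokine Cxcl10 went from 224.5, 194.0 and 239.8 to 771.1, 700.5 and 753.2, a change of 1.69 ± 0.13.

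The interferon-induced GTPases, which act against intracellular microbes, followed. Gbp2, whose promoter is shown above, read 233.4, 206.6 and 190.0 at 6 weeks and 2103.9, 2160.2 and 2165.9 at 9 weeks, so that the groups did not overlap and differed by 3.26 ± 0.08. For Igtp the signals were 1421.6, 1429.2 and 1431.0 and then 6270.5, 6312.5 and 6536.7, a change of 2.15 ± 0.05. Its other probe sets gave 1.12 and 0.84, lower than the first, and the near-identical members of this family may share hybridisation. Irgm changed by 1.15 ± 0.07, from 1084.6, 1136.8 and 1125.9 to 2470.4, 2313.3 and 2731.1.

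Transcription factors of the interferon response were also among the genes that rose. Irf1, which is itself induced by interferon gamma, changed by 1.44 ± 0.07, Irf8 of the myeloid lineage by 1.19 ± 0.09, and Irf7, which drives type I interferon genes, by 1.06 ± 0.07. Stat2 and Irf9, which act in the type I interferon complex, were not called, at 0.36 and 0.26.

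The peptide supply to MHC class I showed the same direction. Psmb9, a catalytic subunit of the immunoproteasome, read 1338.6, 1502.0 and 1398.0 at 6 weeks and 7321.8, 7256.1 and 7304.1 at 9 weeks, a change of 2.36 ± 0.05. The other immunoproteasome subunits also rose, Psmb8 by 1.72 ± 0.04 and Psmb10 by 1.25 ± 0.06. Tap1, which carries peptides into the endoplasmic reticulum, rose by 1.68 ± 0.09, whereas its partner Tap2 was at 0.54 and was not called.

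Members best known from antiviral responses moved less evenly. Rsad2 rose by 1.40 ± 0.08, Isg15 by 1.24 ± 0.08, Mx2 by 1.15 ± 0.12, Ifit3 by 1.11 ± 0.12 and Mx1 by 1.06 ± 0.11. A second Mx2 probe set gave 0.04, and the mean of both probe sets, at 0.60, was not called. With a pseudocount of 64 the Mx1 and Ifit3 changes were 0.86 and 0.96 and were not called, and Mx1 was at 0.99 without 6-week array 1. Oas1a, at -0.29, and Ifitm3, at -0.12, were the members below 0.

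**Figure D2:**
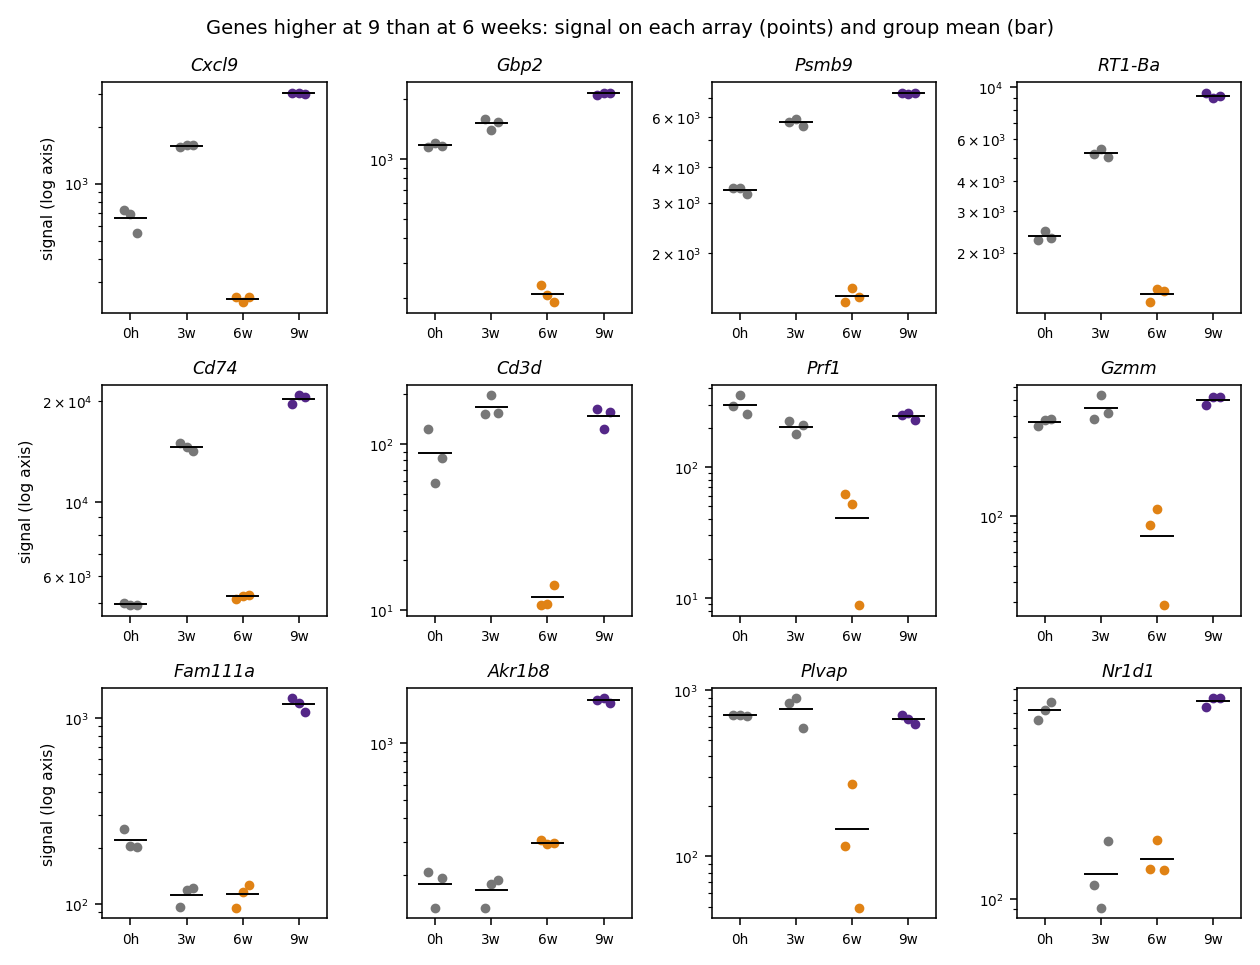
Signal of 12 genes that rose from 6 to 9 weeks on each array (vertical log axis, scaled signal) at 0h, 3, 6 and 9 weeks; points are arrays, n = 3 per group, and bars are group means. Cxcl9 went from 246 at 6 weeks to 3018 at 9 weeks, Akr1b8 and Fam111a were highest at 9 weeks, and in 10 of the panels the 6-week mean lay below the 0h mean.

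MHC class II genes present peptides from outside the cell to helper T cells, and in the rat their main loci are named RT1-B and RT1-D. Of 10 tested members of the class II and antigen presentation list, 8 rose and 0 fell, with a median of 1.66. RT1-Ba, an alpha chain, read 1235.1, 1409.7 and 1377.1 at 6 weeks and 9449.3, 8939.7 and 9133.9 at 9 weeks. The groups did not overlap, and the change was 2.76 ± 0.06 (adjusted p = 9.41e-16). Its beta partner RT1-Bb changed by 2.41 ± 0.05, RT1-Db1 by 2.39 ± 0.05 and RT1-Da by 2.09 ± 0.05.

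Cd74 is the invariant chain that guides class II molecules to the endosome. It went from 5147.9, 5258.0 and 5293.8 to 19636.6, 20826.9 and 20535.7, a change of 1.95 ± 0.04. Hla-dmb and Hla-dma, the array's names for the peptide-loading chains, rose by 1.37 ± 0.05 and 1.25 ± 0.09. Ciita, the transactivator of all class II genes, was near the filter in signal, at 67.9, 43.5 and 72.0 and then 150.8, 160.5 and 195.3. Its change of 1.27 ± 0.36 (adjusted p = 0.0148) lost its call with a pseudocount of 64 (0.90), and without 6-week array 2 or 9-week array 3. Cd86 and Cd83, costimulatory markers of antigen-presenting cells, were at 0.46 and 0.58 and were not called.

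Probe sets of RT1 genes can share sequence with close relatives and differ between alleles, so single RT1 values are uncertain. The other RT1-Ba probe sets gave 1.91 and 0.34, and the second RT1-Db1 probe set gave 2.34. The second RT1-Bb probe set read 12.2, 12.9 and 12.3 at 6 weeks and 1007.5, 1038.2 and 1005.4 at 9 weeks, a change of 5.18, with group means of 13.1 at 0h and 527 at 3 weeks. That probe set was near the bottom of the scale in 2 groups and well above it in the other 2.

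Markers of lymphocytes and NK cells rose in 14 of 29 tested members and fell in 0, with 28 positive and a median of 0.98. With a pseudocount of 64, 9 members rose, and with the filter at the 60th percentile 12 members were tested and 5 rose. In bulk tissue, more cells of a type and more RNA per cell cannot be told apart. Granule proteins of cytotoxic cells were among those that rose. Gzmm, granzyme M, read 87.4, 109.6 and 28.8 at 6 weeks and 469.2, 523.5 and 518.9 at 9 weeks, and Prf1, the pore-forming perforin, read 61.8, 52.1 and 8.8 and then 251.0, 258.6 and 230.1. Array 3 was the lowest 6-week array for both, the groups did not overlap, and the changes were 2.64 ± 0.26 and 2.37 ± 0.31.

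Some T-cell receptor components were called and others were not. Cd3d, the delta chain of the CD3 complex, went from 10.7, 10.9 and 14.2 to 161.5, 124.0 and 155.5, a change of 2.54 ± 0.27, where every 6-week array was close to the bottom of the scale. Cd3e and Cd3g were both at 0.93 and were not called in the comparison as set, although Cd3e was called under 3 alternatives, at 2.03 for the mean of its probe sets, and Cd3g under 1. Cd8a was at 0.77 and was not called. The receptor beta chain gene Tcrb, in no list and chosen after its values were seen, rose by 1.08 ± 0.18 and by 3.10 on a second probe set, and the first was not called with a pseudocount of 64 or without 9-week array 2. Zap70, a kinase of the receptor, rose by 1.27 ± 0.26 but was at 0.82 and not called with a pseudocount of 64. Cd4, which marks helper T cells and in the rat also macrophages, was at -0.30 and was the list's only negative member.

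Other cytotoxic and NK genes rose: Ccl5 by 2.26 ± 0.07, Gzma by 1.75 ± 0.17, Nkg7 by 1.56 ± 0.18, Klrd1 by 1.49 ± 0.17 and Gzmk by 1.35 ± 0.14. Gzmb, Xcl1, Klrb1a and Cd7, all between 1.07 and 1.19, were not called with a pseudocount of 64, and neither were Gzmb (0.79) and Klrb1a (0.99) without 6-week array 1, or Xcl1 without 6-week array 3 or 9-week array 1. Coro1a, an actin-binding protein of leukocytes, rose by 1.92 ± 0.09. The B-cell marker Ms4a1 was at 0.41 and was not called. The summed signal of the 29 members was 7180.4 to 7646 on the 6-week arrays and 14108 to 14398 on the 9-week arrays, against 11239 to 11446 at 0h and 13936 to 14183 at 3 weeks.

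Of 24 tested macrophage and Kupffer cell markers, 6 rose, 0 fell and 22 were positive, with a median of 0.70. Fcgr3a, a receptor for immunoglobulin G, went from 500.6, 395.2 and 408.6 to 1480.6, 1368.5 and 1392.9, a change of 1.67 ± 0.08 without overlap. Tyrobp, an adaptor of myeloid and NK receptors, rose by 1.39 ± 0.08, and Cd5l, a protein secreted by macrophages, by 1.26 ± 0.04. Aif1 rose by 1.22 ± 0.06, with a second probe set at 0.35 and no call, at 0.79, for the mean of both. Itgam and Ptprc, at 1.22 and 1.03, were not called with a pseudocount of 64, Itgam also not without 6-week array 3 and Ptprc not without 6-week array 2. A second Ptprc probe set gave 0.35, and the mean of both, at 0.69, was not called. The Kupffer cell lectin Clec4f was at 0.44 and the scavenger receptor Cd163 at -0.04, and neither was called. Summed signals were 59014 to 59456 at 6 weeks and 90350.1 to 93231 at 9 weeks, with 72001 to 73746 at 0h and 94957 to 95736 at 3 weeks.

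Among 30 tested chemokines, cytokines and adhesion molecules, 6 rose and 1 fell, with a median of 0.58. Beside Cxcl9, Cxcl10 and Ccl5, the B-cell attractant Cxcl13 rose by 1.84 ± 0.13 and Cx3cl1 by 1.75 ± 0.35. Ccl4, at 1.02 ± 0.23, was called in the comparison as set and was not called with a pseudocount of 64 (0.86), after quantile normalization (0.97), or without 6-week array 2 (0.75) or 9-week array 1 (0.98). The monocyte attractant Ccl2 was at 0.51 and the neutrophil attractant Cxcl1 at 0.36, and neither was called. The member that fell was Spp1, osteopontin, from 1610.9, 1875.6 and 1825.6 to 609.2, 717.5 and 666.9, a change of -1.39 ± 0.13.

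The largest fall of all was that of Lcn2, a siderophore-binding protein made by stressed hepatocytes and stored in neutrophil granules. It read 7874.8, 7804.2 and 7706.0 at 6 weeks and 398.7, 421.5 and 475.6 at 9 weeks. All 9-week arrays lay far below all 6-week arrays, at -4.13 ± 0.07 (adjusted p = 4.49e-17), and near the 0h mean of 523, whereas the 3-week mean was 2521. Of 28 tested acute phase proteins and regulators, 3 fell and 2 rose, with a median of 0.07. The interleukin 1 receptor Il1r1 fell by 1.97, from 389.5, 375.1 and 420.1 to 110.1, 77.8 and 81.8, and a second probe set also fell, by 1.46.

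The interleukin 1 receptor antagonist Il1rn fell by 1.41. The phospholipase Pla2g2a rose by 2.26 ± 0.21, from 34.3, 57.3 and 23.9 to 260.8, 211.9 and 238.4. A2m, at 1.04 ± 0.09, was not called with a pseudocount of 64, without 6-week array 3 or without 9-week array 1. The abundant acute phase proteins of the hepatocyte were not called, among them Hp at 0.11, Crp at -0.07 and Fgb at -0.07.

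Of 10 tested granulocyte and antimicrobial genes, 3 fell (Lcn2 and both defensins below), 1 rose and 6 were negative, with a median of -0.40. With the filter at the 60th percentile 6 were tested, 1 fell and the median was -0.05. RatNP-3b, a neutrophil defensin, read 99.4, 128.9 and 73.8 at 6 weeks and 3.2, 4.1 and 7.7 at 9 weeks. The 9-week arrays were at the bottom of the scale, and the change was -2.45 ± 0.22. A second probe set gave -2.18. Defa5, which may share hybridisation with other defensins, went from 223.0, 161.9 and 209.0 to a mean of 35.4 ± 19.5 (SD, n = 3) with 48.0 as its highest array, a change of -2.13 ± 0.26 without overlap. The calgranulins S100a8, at -0.89, and S100a9, at -0.78, did not reach 2-fold.

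The antiprotease Slpi was the member that rose, by 1.68 ± 0.07. Of the list's 22 genes, 12 were not tested. The summed signal of the 10 members was 16228 to 16397 at 6 weeks and 12301 to 12711 at 9 weeks, against 27991 to 29055 at 3 weeks.

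**Figure D3:**
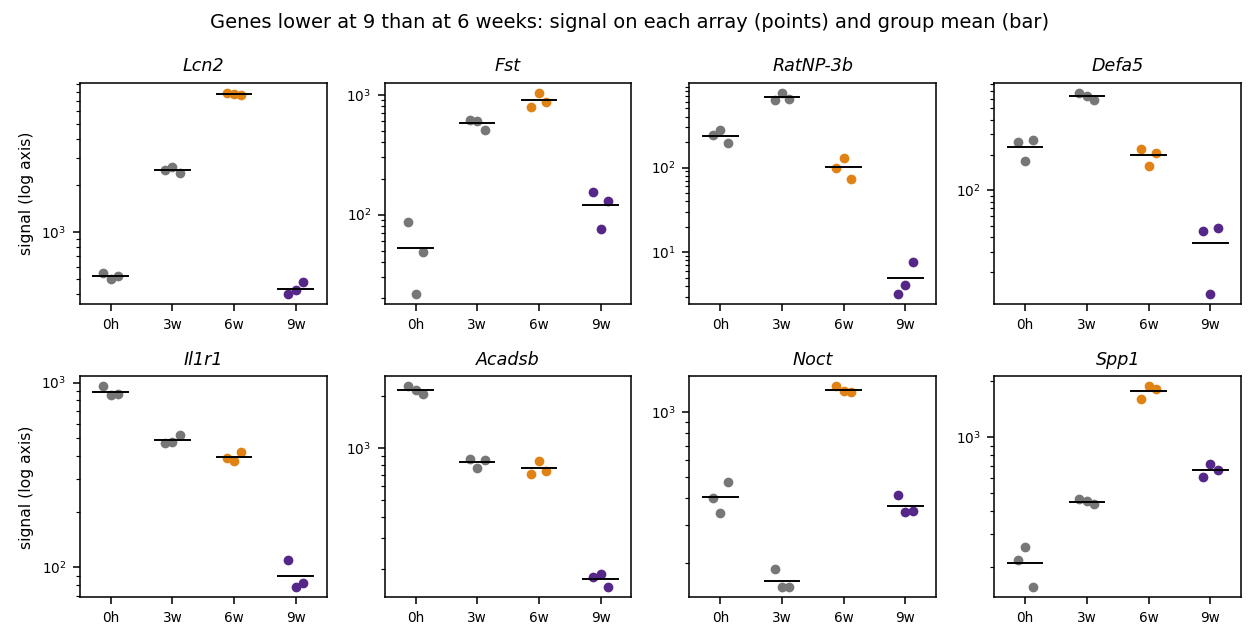
Signal of 8 genes that fell from 6 to 9 weeks on each array (vertical log axis, scaled signal) at 0h, 3, 6 and 9 weeks; points are arrays, n = 3 per group, and bars are group means. Lcn2, Fst, Spp1 and Noct were highest at 6 weeks, whereas the 2 defensins were highest at 3 weeks and Il1r1 and Acadsb at 0h.

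Follistatin, Fst, binds and blocks activin, which restrains hepatocyte growth. It read 796.9, 1034.8 and 870.8 at 6 weeks and 153.4, 75.1 and 128.7 at 9 weeks, with no overlap and a change of -2.80 ± 0.28, beside a 0h mean of 52.3. In the list of stellate cell and myofibroblast markers, which contains it, it was the 1 of 22 tested members that fell. Vim, the filament protein vimentin, was the member that rose, by 1.17 ± 0.07, and the median was 0.18. The myofibroblast actin Acta2 was at 0.13 ± 0.24.

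Of the 31 tested collagens and matrix proteins, 0 were called by limma, 13 had an unadjusted p under 0.05, and the median was 0.15. Col3a1 read 5723.9, 5323.4 and 5275.4 at 6 weeks and 5605.4, 5261.4 and 5343.7 at 9 weeks, so that the groups overlapped, at -0.01 ± 0.05. Col1a1 was at 0.75 ± 0.12 with an adjusted p of 0.00027, short of 2-fold. Timp1, which blocks matrix proteases, was at 0.61 ± 0.11 (adjusted p = 0.000649), also short of 2-fold.

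Markers of bile ducts and progenitor cells rose in 4 of 18 tested members and fell in 1, which was Spp1, with a median of 0.36. The members that rose were 2 with a pseudocount of 64 or without 9-week array 2, and 1 of 12 tested with the filter at the 60th percentile, where the median was 0.22. Without a filter, 6 of 25 rose and the median was 0.63. Cd24 went from 140.1, 94.4 and 75.2 to 317.9, 329.2 and 393.7, a change of 1.64 ± 0.21. Krt19, the keratin of bile duct cells, went from 75.1, 96.8 and 66.2 to 234.7, 282.8 and 248.9, a change of 1.52 ± 0.22, and neither gene's groups overlapped. Prom1 and Sox4 were called at 1.06 and 1.03, but not with a pseudocount of 64, without 9-week array 2, or, for Prom1, without 6-week array 1 and, for Sox4, without 6-week array 2. Other Sox4 probe sets gave 0.54 and 0.18, and Sox4 was also not called for the mean of its probe sets (0.58) or after quantile normalization. Epcam was at 0.83 and was not called.

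Of 24 tested endothelial and sinusoidal markers, Plvap alone was called. Plvap, which forms the diaphragms of capillary openings, read 115.5, 274.7 and 49.0 at 6 weeks and 708.0, 670.5 and 627.1 at 9 weeks. The 6-week arrays were spread widely and stayed below the 9-week arrays, at 2.34 ± 0.33. Its 9-week mean was close to that at 0h, 707, and Pecam1 was at -0.08.

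Of 34 tested phase II and antioxidant genes, 2 rose, 0 fell, 24 were positive and 22 had an unadjusted p under 0.05, with a median of 0.20. Akr1b8, an aldo-keto reductase, read 305.0, 289.5 and 294.7 at 6 weeks and 1701.0, 1734.8 and 1637.1 at 9 weeks, a change of 2.45 ± 0.15, and Gstp1, the placental glutathione transferase known as a marker of rat liver nodules, read 2835.1, 2772.1 and 2717.9 and then 8465.3, 8192.0 and 8105.0, a change of 1.57 ± 0.05. For both, all 9-week arrays exceeded the arrays of every other group, with 0h means of 178 and 1069.

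Of 32 tested P450 enzymes and their reductase, Cyp4a8 alone was called, at 1.48 ± 0.19, with a second probe set at 0.50 and no call for the mean of both. Cyp2e1, the main enzyme that activates CCl4, overlapped between the groups at 0.03 ± 0.06. Among genes that normally differ between the sexes, 1 of 16 tested male-biased and 1 of 15 tested female-biased genes rose. Car3, abundant in male rat liver, rose from 105.1, 68.8 and 128.7 to 375.0, 390.9 and 423.8, beside a 0h mean of 34179. A second Car3 probe set gave 0.36 and no call. A1bg, abundant in female rat liver, rose by 1.11 ± 0.11, to 240.4, 244.8 and 205.3, beside a 0h mean of 25852, and was at 0.86 and not called with a pseudocount of 64.

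In cholesterol synthesis, 2 of 26 tested genes rose, with 22 positive and a median of 0.37, or 0.23 for the mean of each gene's probe sets. These were Sqle, squalene epoxidase, by 1.31 ± 0.10, and Msmo1, a sterol methyl oxidase, by 1.13 ± 0.07. Of 31 tested genes of fatty acid oxidation and PPAR-alpha targets, 1 rose and 1 fell, with a median of -0.04. Pdk4, which blocks the entry of pyruvate into the citric acid cycle, fell by 1.41, from 1386.3, 1628.5 and 1343.9 to 499.8, 533.4 and 567.7.

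In fatty acid synthesis, 1 of 26 tested genes rose and 2 fell, with a median of 0.05. The desaturase Fads1 rose by 1.16 ± 0.08, while the elongase Elovl5 fell by 1.12 and Lpin1 by 1.02. Lpin1 was not called without 6-week array 2 or 9-week array 2. Outside the fatty acid synthesis list, the hormone Fgf21 rose from 488.5, 515.5 and 520.4 to 1183.5, 1033.7 and 1077.6, at 1.09 ± 0.22. In urea cycle, amino acid and glucose metabolism, 26 of 35 tested genes were negative, with a median of -0.10, and Sds, serine dehydratase, fell by 1.26. Oat, ornithine aminotransferase, fell by 1.02 and was at -0.94 without 6-week array 2 and -0.96 without 9-week array 3, and not called in either. In bile acid synthesis and transport, 1 of 22 tested genes fell and 0 rose, with a median of 0.03. This was the sterol transporter Abcg8, which fell by 1.11 with low signal. Abcg8 was at -0.62 and not called with a pseudocount of 64, nor was it called without 6-week array 3 or 9-week array 1.

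Other metabolic genes were among the largest falls. Acadsb, which breaks down branched-chain acyl chains, read 705.9, 845.9 and 734.4 at 6 weeks and 179.4, 185.3 and 155.9 at 9 weeks, a change of -2.04 ± 0.09, and Ppm1k, the phosphatase that switches on branched-chain amino acid breakdown, read 1127.5, 1054.9 and 1081.9 and then 336.2, 318.1 and 311.0, a change of -1.71 ± 0.09. Both sets of 9-week arrays lay below all 6-week arrays. Noct, a rhythmic enzyme of nicotinamide cofactors, fell by 1.74 and Xiap, an inhibitor of apoptosis, by 1.54.

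Lratd2, Prkar2a and Arnt2 rest on less. Lratd2 fell by 2.05, to 12.2, 21.7 and 29.6. Prkar2a, a regulatory subunit of protein kinase A, fell by 1.60, but its second probe set gave -0.06 and the mean of both, at -0.83, was not called. For Arnt2 the 9-week arrays were 16.1, 17.2 and 128.6, the last of which lay inside the 6-week range of 101.9 to 190.6. Its change of -1.60 ± 0.48 was not called under 6 alternatives, among them leaving out 6-week array 1 or 3, or 9-week array 1 or 2.

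Genes of the circadian clock were split. Nr1d1, a repressor that cycles strongly in liver, read 137.0, 185.3 and 135.3 at 6 weeks and 748.2, 816.6 and 815.0 at 9 weeks, a change of 2.28 ± 0.18, and Dbp, an output factor, read 103.1, 125.1 and 133.3 and then 390.3, 468.7 and 415.4, a change of 1.69 ± 0.16. In neither case did the groups overlap. Of 14 tested repressors and outputs, 2 rose and 1 fell, with a median of -0.03. The member that fell, at -1.02, was just past 2-fold and was not called without 6-week array 2 or 9-week array 2. Of 4 tested activators 0 were called by limma, 3 had an unadjusted p under 0.05, and the median was -0.65. The labels give no time of day for the sampling, and its part in these values was not tested.

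Liver transcription factors held 3 calls among 25 tested, with a median of -0.01. Bcl6, a repressor, rose by 1.54 ± 0.15 and Nr1i3, the constitutive androstane receptor, by 1.19 ± 0.12. Hnf4a, a central factor of hepatocyte identity, fell from 1134.1, 1189.6 and 1122.2 to 564.7, 465.3 and 562.5, a change of -1.10 ± 0.08 without overlap, and its second probe set, at -0.95, did not reach 2-fold. Of the 15 hepatocyte identity genes, all tested, 0 were called by limma and 2 had an unadjusted p under 0.05. Their median was 0.00, their summed signal was 342323 to 389456 at 6 weeks and 342224 to 379864 at 9 weeks, and Alb was at 0.08 ± 0.07.

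The median was -0.10 for 40 cytosolic ribosomal protein genes, -0.06 for 37 respiratory chain genes, 0.12 for 33 plasma and coagulation proteins and -0.03 for 42 cell cycle genes. Limma called 0 genes in each of these lists, and an unadjusted p under 0.05 was found for 19, 15, 18 and 6 of them in turn. Of 21 tested endoplasmic reticulum stress genes, 20 were negative, with a median of -0.20. Limma called 0 of them, and 16 had an unadjusted p under 0.05. The lowest was the disulfide isomerase Pdia4, at -0.78, and the chaperone Hspa5 was at -0.16. For 28 p53 targets and immediate early genes, 19 heat shock proteins and chaperones, 13 serine and one-carbon enzymes, 11 matrix proteases and inhibitors and 10 markers of neighbouring tissues, limma called 0 genes, with medians of 0.01, 0.11, -0.13, 0.24 and -0.03. An unadjusted p under 0.05 was found for 17, 10, 7, 5 and 3 of these. No share over all genes tested stands beside such counts or beside the count of negative members, so they are not read as changes of the lists.

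**Figure D4:**
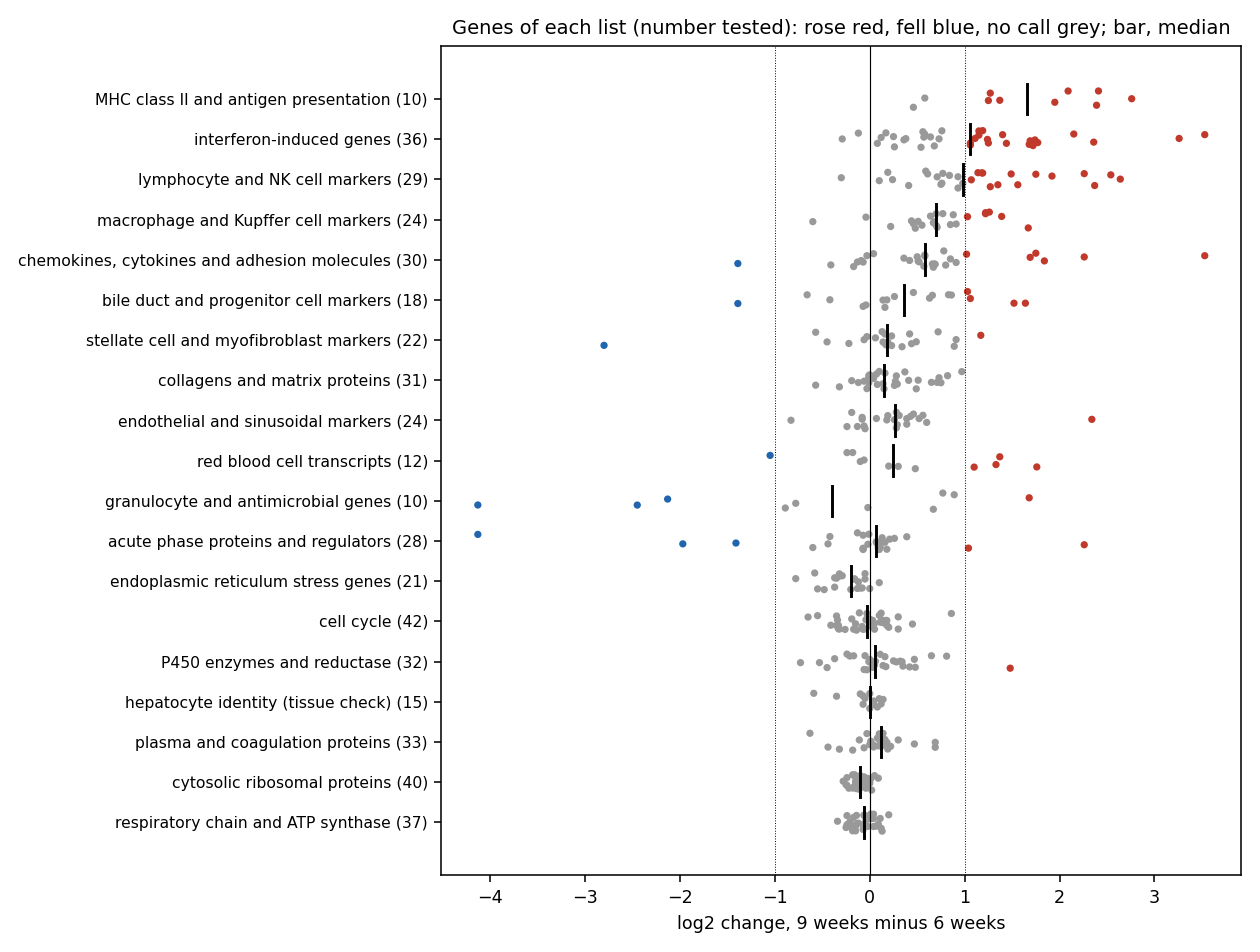
Change from 6 to 9 weeks (horizontal axis, log2 of signal + 16, 9 weeks minus 6 weeks) of the tested genes in 19 of the 36 gene lists, with the number tested in brackets; red points rose, blue points fell, grey points were not called, black bars are medians and dotted lines mark 2-fold. Of the 19 lists plotted, the class II list had the highest median, 1.66, and the granulocyte list the lowest, -0.40, while the ribosomal and respiratory chain genes lay close to 0.

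The 6-week livers were the low point of most of the rises. The 6-week mean was the lowest of the 4 group means for 161 of the 199 genes that rose, or 80.9%, against 24% of all genes tested. The 9-week mean was the highest for 105 of them, or 52.8%, against 27.2% of all genes. Of the 60 genes that fell, 47 (78.3%) had their lowest mean at 9 weeks, against 18.7% of all genes, and 22 (36.7%) their highest at 6 weeks, against 23.5%. These shares use the arrays that chose the genes and are a description. Of the genes that rose, 0 had their highest mean at 6 weeks or their lowest at 9 weeks, as the call requires. The reverse held for the genes that fell. The call itself therefore raises the shares among called genes, and the shares of all genes are not a like background. In the authors' deposited table of log2 ratios to 0h, all 259 called genes differed between 6 and 9 weeks in the same direction, 223 of them by at least 1. The ratios are of the same 6- and 9-week groups in the same workbook, so their direction is no independent check.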

How the data were processed

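The deposited workbook holds 1 intensity (signal) per probe set and array, on a linear scale; GCOS 2.0 made them, per the submitters' processing notes, with settings not given in the sources used here. The authors had scaled the arrays: the mean after trimming 2% from each end was 500.2 on all 12. The authors also deposited log2 ratios to 0h, by a method not stated, and a second table of the same signals. The number of per-sample columns left unmatched is 0.

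Signals were not renormalized, since array medians lay between 7.09 and 7.31 on the log2(signal + 16) scale. Across probe sets, the 6- and 9-week arrays correlated at r = 0.974 to 0.977 within groups and 0.964 to 0.969 between them. Probe sets were kept when their mean over the 12 arrays passed the 40th percentile (log2 6.516, a signal of 75.5), which left 13766, and the brightest stood for its gene. Symbols were updated with the RefSeq gene table of build GRCr8, so that 18382 probe sets had a current or updated symbol and 1475 kept the file's. Probe sets without a symbol (11134), with several (23) or with a date in place of a symbol (28) were left out, as were 57 controls. Groups came from the labels. limma 3.58.1 in R 4.3.3 fitted 4 group means to the 12 arrays, with moderated variances that follow the mean level, 8 residual degrees of freedom and, at the median gene, a residual SD of 0.131. Called means a change of at least 2-fold with a Benjamini-Hochberg adjusted p, over the 10298 genes, under 0.05. Arrays give no counts, so their number limits the precision, and no detection calls were used. The fit was tested on simulated data. Tables were made with pandas 2.3.3 and figures with matplotlib 3.10.9 in Python 3.11.15.

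Genes named are the 12 largest rises and 12 largest falls with a symbol that is no locus name, the called members of 36 gene lists with the largest change, and other members with their values. The lists and the comparison were chosen with earlier results of these data known. Alternatives were other pseudocounts (1 and 64), no filter or the 60th percentile, median centring, quantile normalization, only the 6- and 9-week arrays, no variance trend, the mean of a gene's probe sets, the replicate number as a block, leaving out each array, and the second table. Values of some list members are not reported here.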

Additional observations from a re-analysis of the deposited data

How the results depend on the processing

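With a pseudocount of 64, 132 genes rose and 33 fell in place of 199 and 60, all of them among those called before. Without a filter 91 fell, of which 58 were shared, and with the filter at the 60th percentile 33 fell, all shared; fewer or more dim genes enter in these settings. Leaving out each array in turn gave 187 to 210 rises and 55 to 72 falls. The fit with the replicate block called 199 rises and 60 falls, 199 and 59 of them shared. The deviations of 6- and 9-week arrays with the same number correlated at -0.0382, 0.0541 and 0.119, so the numbers were not taken as pairs. For the 24 genes named by size, 393 of 400 alternative values kept the call, 7 lost it (6 of Arnt2 and 1 of Prkar2a) and 0 reversed. For the 112 called genes in the lists or named in the text, 1816 of 1877 kept it, 61 lost it and 0 reversed. Settings in which a gene did not pass the filter gave no value and were counted neither as kept nor as lost. The second table holds the same signals, so its values kept the call without being a separate check. Tgfbr2 (-0.94) lost its call with a pseudocount of 64. Median centring and quantile normalization left the median of all genes at 0.03 and 0.02. Low signal limits the comparison: the median signal of genes that fell was 144 at 9 weeks, and of 15 other probe sets for 13 of these genes 3 gave the same call, against 20 of 46 for 36 of the genes that rose.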

Other observations

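Some large changes lie outside the naming rule, because the array gives only a locus name, and were chosen after their values were seen. LOC686634, annotated as a hypothetical protein, read 644.2, 638.9 and 667.1 at 6 weeks and 25970.4, 23868.0 and 26830.5 at 9 weeks, the largest rise of all at 5.26 ± 0.05. Its group means were 15517 at 0h and 15990.5 at 3 weeks, so the 6-week arrays alone were low. LOC362795, annotated as an immunoglobulin G heavy chain, went from 54.7, 110.7 and 122.5 to 2322.4, 2360.1 and 2236.4, at 4.43 ± 0.36, with means of 245 at 0h and 156 at 3 weeks, so here the 9-week arrays alone were high. MGC108823 and RGD1309362, both annotated as similar to an interferon-inducible GTPase, rose by 3.11 and 2.87 from 6 to 9 weeks. Their means at 0h were 5467 and 7953, and their signals at 6 and 9 weeks are not given here. The reservation on shared hybridisation given for Igtp holds for both.

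Other genes that were in no list, also chosen after their values were seen, include more of the same kinds. Ubd, an interferon-induced ubiquitin-like protein, rose by 2.13 ± 0.06, from 2382.5, 2277.7 and 2391.9 to 10464.8, 9588.8 and 11122.9. Cxcr3, the receptor for Cxcl9 and Cxcl10, rose by 1.41 ± 0.18, from 94.3, 89.1 and 82.7 to 254.3, 243.4 and 290.4. The NK receptor Klrk1 rose by 1.69 ± 0.35, and 6-week array 3, at 153.4, stood well above the others at 30.4 and 27.4. Among class I genes, RT1-N3 rose by 2.11, and 3 probe sets of RT1-CE5 gave 1.47, 3.05 and 2.32, with the reservation on RT1 probe sets given above. Fam111a, which acts in host restriction of viruses and in DNA replication, read 95.0, 115.2 and 127.0 at 6 weeks and 1275.6, 1207.9 and 1080.8 at 9 weeks, with means of 221 at 0h and 112 at 3 weeks. Irs2, an adaptor of insulin signalling, fell by 1.43, from 1234.3, 1338.2 and 1361.5 to 405.0, 509.8 and 519.5, and Tgfbr2, a receptor of transforming growth factor beta, fell by 1.37, from 113.5, 186.1 and 179.0 to 71.0, 58.9 and 29.0.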
